A study of Mus musculus with 8 samples.

Results

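The gp130 receptor family and its JAK and STAT partners were followed over mouse retinal development in 9 genes chosen by symbol. These were Il6st, Lifr, Cntfr, Osmr, Jak1, Jak2, Stat3, Socs2, and Socs3, out of 21830 genes in the deposited tables. Each of the 9 genes had 1 row in every table, and 8 of them had a mean FPKM of at least 1, as did 12359 of all genes. FPKM is a fragment count divided by transcript length and by the mapped fragments of the library, so levels of different genes can be compared within a library. The retinas came from mice of the strain slc:ICR, with 1 RNAseq library for each of 8 conditions. Whole retinas were taken at E15 and E18, and retinas at P2, P5, and P8 were pooled by age and sorted into cells positive for Cd73 (Cd73PC) and cells negative for it (Cd73NC). Cd73 is a surface enzyme carried by rod precursors and rods. No condition had a replicate, so no difference below was set against a replicate error, no test was made, and each error given is the pair of confidence bounds that Cufflinks attached to an FPKM within its library.

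Cytokines such as LIF, CNTF, and oncostatin M signal through receptors that share the chain gp130, encoded by Il6st. LIF uses gp130 with the LIF receptor, CNTF needs in addition its own membrane-anchored chain, and oncostatin M uses gp130 with its own receptor chain. The kinases JAK1 and JAK2 sit on the inner side of these receptors and phosphorylate STAT3, which then enters the nucleus and induces, among other genes, Socs3, whose product binds gp130 and shuts the signal off. In retinal explants, added CNTF or LIF holds back the differentiation of rods, and in the adult eye LIF takes part in the response of Muller glia and photoreceptors to injury.

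The sort and its limits were read from marker genes first. The FPKM of 10 rod markers summed to 4820, 10178, and 16162 for the positive fraction at P2, P5, and P8, and to 195, 1592, and 1373 for the negative one. P5 Cd73NC thus held the most rod marker RNA of the negative libraries. Summed over 10 markers of Muller glia, FPKM was 336 to 505 in Cd73PC and 1177 to 1656 in Cd73NC. Aqp4, which marks mature Muller glia, was below FPKM 1 in every library but P8 Cd73NC. At P2 the positive fraction held more RNA of 8 microglial markers (51.0 against 8.88, with Fcer1g at 0 in Cd73NC) and of 5 astrocyte markers (26.0 against 2.90). The sum of 8 bipolar markers was also higher there (789 against 359), but 777 of it was Otx2, which photoreceptors express too, and Grm6, Vsx1, Bhlhe23, and Isl1 were below FPKM 1. The sum of 9 markers of endothelial cells and pericytes was 16.5 to 46.9 in Cd73PC and 94.5 to 171 in Cd73NC. Kdr alone made up 67.5 to 143 of it in Cd73NC, while Pecam1, Cdh5, Tek, and Tie1 were at most 1.13 there and, at P5, higher in Cd73PC. In such bulk samples, fewer cells of a type and less RNA per cell cannot be told apart. The median log2 ratio of all 12348 or 12349 genes, Cd73PC over Cd73NC, was -0.14, -0.18, and -0.22 at P2, P5, and P8, and these medians are the base for the single ratios below. With quantile normalization they were -0.04, 0.003, and 0.02.

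**Figure D1:**
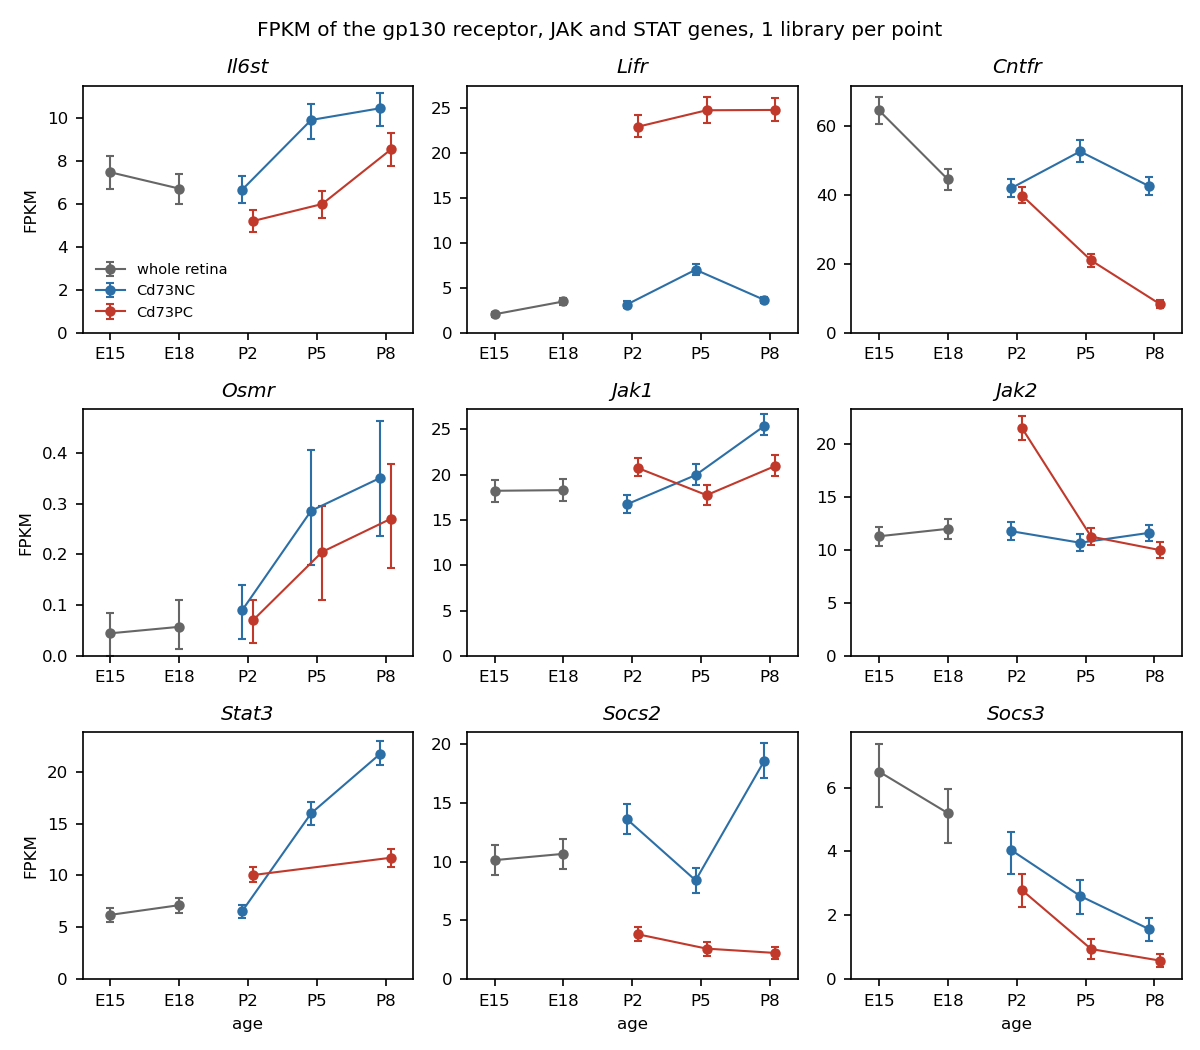
FPKM of each of the 9 genes against age, with 1 library per point and bars for the confidence bounds of Cufflinks, in whole retina (grey), Cd73NC (blue), and Cd73PC (red). Lifr lay at 22.9 to 24.8 in Cd73PC and at or below 7.0 elsewhere, Cntfr went down with age only in the red series after birth, and the line for Stat3 in Cd73PC passes over P5, where no value was available.

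Among the receptors, Lifr, which encodes the LIF receptor, was the one that was higher in Cd73PC at every age. In the NCBI37/mm9 build it spans positions 7079572 to 7147489 of chromosome 15. Whole retina had an FPKM of 2.04 (E15) and 3.47 (E18), and Cd73NC had 3.12, 7.0, and 3.63 at P2, P5, and P8. In Cd73PC the levels were 22.9, 24.7, and 24.8. All 3 positive libraries were above all 5 other libraries, and their bounds (21.8 to 24.2 at P2) did not reach those of P5 Cd73NC (6.36 to 7.63). Without an added constant, the positive fraction had 7.34, 3.53, and 6.82 times the level of the negative one. As log2 of the ratio of FPKM + 1, the scale used for all further ratios, these differences were 2.54, 1.69, and 2.48. A larger ratio than that of Lifr was held by 1.47%, 1.72%, and 1.24% of all tested genes.

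The high level of Lifr was already present at P2 and then hardly moved. From E18 whole retina to P2 Cd73PC the log2 ratio was 2.42, whereas from P2 to P8 within Cd73PC it was 0.11, with overlapping bounds. The negative fraction carried 13.6%, 28.3%, and 14.7% of the Lifr level of the positive one at P2, P5, and P8. For the 10 rod markers this percentage had medians of 2.12%, 11.6%, and 7.45%, and the highest single marker reached 18.9%, 51.0%, and 30.3%. Both Lifr and the rod markers were thus highest in Cd73NC at P5, and the part of rod RNA in the Lifr level of Cd73NC was not tested.

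The tables list 2 start sites for Lifr but give 1 value for the gene, so transcripts from the 2 sites were not separated. RefSeq (GRCm38.p6) also holds a pair of start sites, and the 250 bases before each are shown because they differ strongly in base composition. Written 5′ to 3′ on the plus strand, with every CpG in capitals, the upstream window is chr15:7129322-7129571 and the downstream window is chr15:7140292-7140541.
Lifr upstream start: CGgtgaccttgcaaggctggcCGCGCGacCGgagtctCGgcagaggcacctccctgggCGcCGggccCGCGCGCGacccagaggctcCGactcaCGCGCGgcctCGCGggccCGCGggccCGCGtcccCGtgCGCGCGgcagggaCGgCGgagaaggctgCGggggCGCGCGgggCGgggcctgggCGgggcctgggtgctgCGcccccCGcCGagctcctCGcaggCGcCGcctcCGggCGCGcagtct
Lifr downstream start: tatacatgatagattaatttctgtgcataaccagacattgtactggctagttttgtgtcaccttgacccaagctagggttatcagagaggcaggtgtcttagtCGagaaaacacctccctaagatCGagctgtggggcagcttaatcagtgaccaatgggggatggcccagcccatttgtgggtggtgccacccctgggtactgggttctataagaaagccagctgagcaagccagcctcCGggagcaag
The upstream window had 43 CpG and a GC content of 82.4%, and the downstream window had 3 CpG and 50.8%. Over all 32851 RefSeq windows of this length, the medians were 6 CpG and 52.4%. The letters TAATCC, the core of sites bound by the photoreceptor homeodomain factor Crx, were in neither window on either strand, in none of the 14 windows of the 8 genes that RefSeq matched, and in 6.25% of all windows. Several of the 14 are windows of Cntfr that overlap each other, so the 14 are not separate stretches.

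Cntfr, which encodes the chain that binds CNTF, had a different course. It lies on chromosome 4 from 41604529 to 41644123. Whole retina had an FPKM of 64.7 (E15) and 44.6 (E18), the highest level of the 9 genes in both. At P2 it was 42.1 in Cd73NC and 39.9 in Cd73PC, and the bounds overlapped. Afterwards it was 52.7 and 42.7 in Cd73NC at P5 and P8, but 21.0 and 8.31 in Cd73PC. The fractions therefore overlapped at P2 and were apart at P5 and P8, with log2 ratios of -0.07, -1.29, and -2.23. Within Cd73PC the ratio of P8 over P2 was -2.13, and 1.76% of tested genes had a smaller one, while in Cd73NC it was 0.02. The sign of the small P2 difference turned with upper-quartile scaling and with quantile normalization. RNA of 10 progenitor markers went the same way in Cd73PC, with sums of 507, 228, and 185. RNA of 8 proliferation markers went from 291 to 58.2, where 6 of the 8 were below FPKM 1. In Cd73NC the progenitor markers summed to 2025, 988, and 1354. Their part in the Cntfr course was not tested.

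Il6st, the gene of the shared chain gp130, lies on chromosome 13 from 113254278 to 113297068, and varied little. Whole retina had an FPKM of 7.46 (E15) and 6.70 (E18). The level was 6.65, 9.89, and 10.4 in Cd73NC at P2, P5, and P8, and 5.20, 5.98, and 8.52 in Cd73PC. Cd73PC was the lower fraction at each age, but past 1.5-fold only at P5 (log2 ratio -0.64). The P5 ratio was within 1.5-fold under all 3 scalings tried, at -0.54 with the upper quartile, -0.58 with the median ratio, and -0.36 with quantile normalization, which also turned the P8 difference from -0.26 to 0.02. Both fractions had more Il6st at P8 than at P2, by a log2 ratio of 0.58 in Cd73NC and 0.62 in Cd73PC. The second of these passed 1.5-fold.

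Osmr, the gene of the oncostatin M receptor chain, was close to absent. It lies on chromosome 15 from 6763577 to 6824313. Its FPKM was 0.0444 at E15, 0.0572 at E18, 0.0902, 0.286, and 0.351 in Cd73NC at P2, P5, and P8, and 0.0708, 0.205, and 0.270 in Cd73PC. With the depth estimated from the steps of weakly expressed rows, this corresponds to about 3 fragments at E15 and 37 in P8 Cd73NC. At no age were the bounds of the 2 fractions apart for Osmr. Within each fraction the P8 bounds lay above the P2 bounds, at levels that remained below FPKM 1.

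Relative to gp130, the receptor chains thus differed between the fractions. Per FPKM of Il6st, Lifr stood at 0.273 at E15, 0.517 at E18, and 0.348 to 0.707 in Cd73NC, and at 4.41, 4.13, and 2.90 in Cd73PC at P2, P5, and P8. Cntfr per Il6st was 8.67 at E15 and 6.65 at E18. It was 6.32, 5.33, and 4.09 in Cd73NC and 7.67, 3.51, and 0.975 in Cd73PC. Cntfr was the highest of the 9 genes in every whole retina and Cd73NC library and in P2 Cd73PC. In P5 and P8 Cd73PC the highest was Lifr. In P8 Cd73PC, Jak2, Il6st, and Cntfr followed each other with overlapping bounds.

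**Figure D2:**
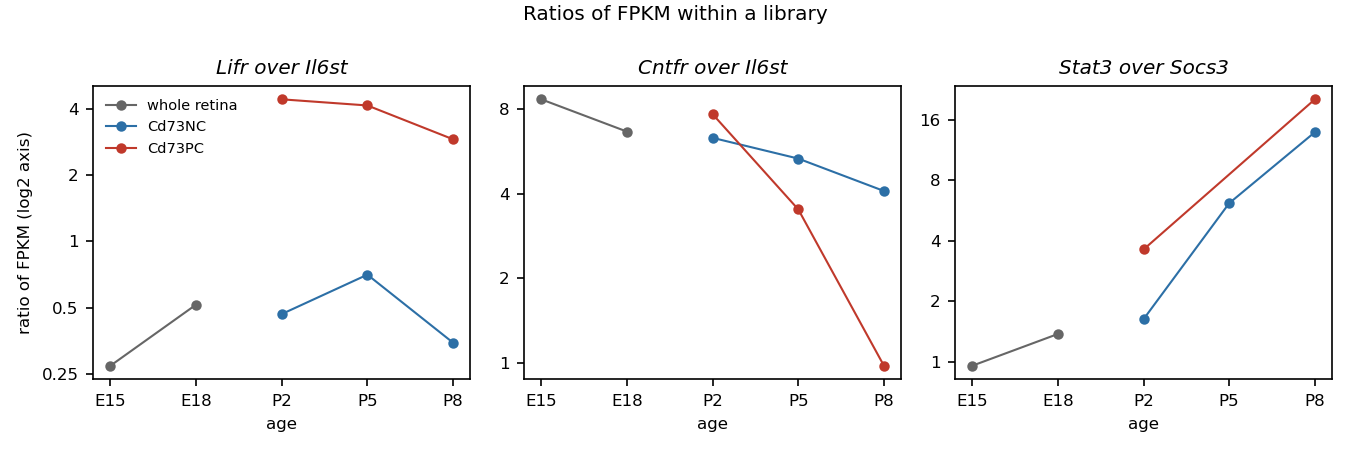
Ratio of the FPKM of 2 genes within each library against age, on a log2 axis, for Lifr over Il6st, Cntfr over Il6st, and Stat3 over Socs3, with 1 library per point. Lifr over Il6st was at least 2.90 in Cd73PC and at most 0.707 elsewhere, and Stat3 over Socs3 reached 20.2 in P8 Cd73PC and 13.9 in P8 Cd73NC.

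The 2 kinases were more even over the libraries than Lifr and Cntfr, but Jak2 had a wider log2 range (1.03) than Il6st (0.88). Jak1, on chromosome 4 from 100824579 to 100937887, had the narrowest span of the 8 genes with a mean FPKM of at least 1, and its log2 range of 0.57 over the libraries compares with a median of 1.21 over all tested genes. Its FPKM was 18.2 and 18.3 in E15 and E18 whole retina, 16.7, 19.9, and 25.4 in Cd73NC, and 20.7, 17.7, and 21.0 in Cd73PC at P2, P5, and P8. Cd73PC was above Cd73NC at P2 and below it at P8, with bounds apart at both ages, but the log2 ratios of 0.29 and -0.26 were within 1.5-fold. The P8 ratio was also close to the median of all genes, -0.22. The row of Raver2 overlaps that of Jak1 by 397 bases, and the preparation did not record the strand.

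Jak2, on chromosome 19 from 29326318 to 29387570, stood out in 1 library. Its FPKM was 21.4 in P2 Cd73PC (bounds 20.4 to 22.6). The other 7 libraries lay between 9.97 and 11.97, namely 11.3 and 11.97 in E15 and E18 whole retina, 11.7, 10.7, and 11.6 in Cd73NC at P2, P5, and P8, and 11.2 and 9.97 in Cd73PC at P5 and P8. The log2 ratios between the fractions were therefore 0.81, 0.07, and -0.20, the last of which became 0.05 with quantile normalization, and that of P2 Cd73PC over E18 whole retina was 0.79. Within Cd73PC, P8 over P2 was -1.03. P2 Cd73PC was also the positive library with more microglial and astrocyte marker RNA than its negative counterpart (51.0 against 8.88 and 26.0 against 2.90), and the part of those cells in the Jak2 level was not tested.

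Stat3, which encodes the transcription factor at the end of this pathway, lies on chromosome 11 from 100748124 to 100800825. Cufflinks marked its estimate in P5 Cd73PC as failed, so 7 values remained and no fraction ratio could be given at P5. Its FPKM was 6.19 at E15 and 7.13 at E18. The negative fraction had 6.57, 16.0, and 21.7 at P2, P5, and P8, a course in which no bounds overlapped. In Cd73PC it was 10.04 at P2 and 11.7 at P8, whose bounds were barely apart. P2 Cd73PC was thus above P2 Cd73NC, by a log2 ratio of 0.55, and P8 Cd73PC below P8 Cd73NC, by -0.84. Within Cd73NC the ratio of P8 over P2 was 1.59, which 5.71% of tested genes exceeded, and within Cd73PC it was 0.20. Between P2 and P8 the summed bipolar markers of Cd73NC went from 359 to 1593. Its astrocyte markers went from 2.90 to 25.1 and its microglial markers from 8.88 to 173. Its summed Muller glia markers went from 1177 to 1318, but not as 1 group. Apoe (110 to 540), Rlbp1, Car14, Kcnj10, and Aqp4 were higher at P8, and Dkk3 (489 to 200), Glul, Slc1a3, Sox9, and Cp were lower. The part of these cells in the Stat3 course was not tested.

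The 2 inhibitors were both lower in Cd73PC, with different courses. Socs2 encodes a protein known mostly as a brake on growth hormone signalling, and lies on chromosome 10 from 94874124 to 94879491. Its FPKM was 10.1 and 10.7 in E15 and E18 whole retina. It was 13.6, 8.40, and 18.6 in Cd73NC and 3.82, 2.59, and 2.22 in Cd73PC at P2, P5, and P8. The 3 positive libraries were below all others, with log2 ratios to Cd73NC of -1.60, -1.39, and -2.605. At P8, 1.52% of tested genes had a smaller ratio. From P2 to P8 its level was higher in Cd73NC (log2 ratio 0.42) and lower in Cd73PC (-0.58), both within 1.5-fold.

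Socs3 encodes the inhibitor that STAT3 itself induces, and lies on chromosome 11 from 117827401 to 117830680. Its FPKM was 6.499 at E15 and 5.20 at E18. It was 4.04, 2.605, and 1.57 in Cd73NC and 2.78, 0.941, and 0.579 in Cd73PC at P2, P5, and P8. The level was lower at each later age in both fractions, and lower in Cd73PC than in Cd73NC at each age, with log2 ratios of -0.42, -0.89, and -0.70. The bounds of the fractions were apart at all 3 ages, narrowly at P2. Without the added constant the P8 ratio was -1.43. With quantile normalization the P5 and P8 ratios were -0.49 and -0.26, both within 1.5-fold. From P2 to P8 the ratio was -0.97 in Cd73NC and -1.26 in Cd73PC. Stat3 and Socs3 therefore moved apart with age. Per FPKM of Socs3, Stat3 was at 0.953 at E15, 1.37 at E18, 1.62, 6.14, and 13.9 in Cd73NC, and 3.61 and 20.2 in P2 and P8 Cd73PC.

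The 250 bases before the Socs3 start are shown because Socs3 is the member known as a direct target of STAT3. In the sequence, 5′ to 3′ on the minus strand of chr11:117969367-117969616 (GRCm38.p6, from RefSeq), capitals mark a match to TTCNNNGAA, the palindrome that STAT proteins bind, from 154 to 146 bases before the start.
Socs3: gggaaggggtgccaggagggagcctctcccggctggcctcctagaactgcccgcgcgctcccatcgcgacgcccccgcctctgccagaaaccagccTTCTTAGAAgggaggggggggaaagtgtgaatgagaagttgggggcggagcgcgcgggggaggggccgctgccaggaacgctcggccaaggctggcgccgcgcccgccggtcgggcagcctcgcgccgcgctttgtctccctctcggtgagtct
The Socs3 window was the only one of the 14 windows of the 8 matched genes with these letters, which occur in 7.02% of the 32851 windows. A share of 1 in 14 is close to that of all windows, so the match does not set these genes apart. The narrower form TTCCNGGAA was in 0 of the 14 and in 0.913% of all windows. Both motifs read the same on either strand, and every match to the narrower form is also a match to the wider one.

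Counted together at 1.5-fold on FPKM + 1, the members differed between the fractions as follows. Osmr is counted among them, although its mean FPKM of 0.17 was below the minimum of 1 that all tested genes met. At P2, 2 of 9 were higher in Cd73PC (Lifr and Jak2), where 13.9% of all tested genes were, and 1 was lower (Socs2), against 24.2%. Stat3, at 0.55, made 3 higher members under 4 alternatives, with ratios of 0.61 for both smaller constants, 0.63 with upper-quartile scaling, and 0.67 with quantile normalization. At P5, of the 8 with a value, Lifr was higher (11.6% of all genes) and Il6st, Cntfr, Socs2, and Socs3 were lower (26.3%). At P8, Lifr was higher (12.4%) and Cntfr, Stat3, Socs2, and Socs3 were lower (29.8%). Higher genes made up 30.7% of all calls at P5 and 29.4% at P8, and 46.8% and 48.0% after quantile normalization. The median log2 ratio of the members was -0.03, -0.40, and -0.26. By Cufflinks bounds that did not overlap, 4 were higher (Lifr, Jak1, Jak2, and Stat3; 24.4% of all genes) and 3 lower (Il6st, Socs2, and Socs3; 41.3%) at P2. At P5, Lifr was higher (20.0%) and Il6st, Cntfr, Socs2, and Socs3 lower (42.1%), and at P8, Lifr was higher (21.1%) and 7 were lower (45.7%), Osmr being the member with overlapping bounds. The difference turned from higher at P2 to lower at P8 in Jak1, Jak2, and Stat3 (5.04% of all genes), and turned the other way in 0 members (1.89%). From P2 to P8, Socs2 had opposite courses in the fractions (7.40%). A list of 9 genes is too short for its shares to be told apart from those of all genes.

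**Figure D3:**
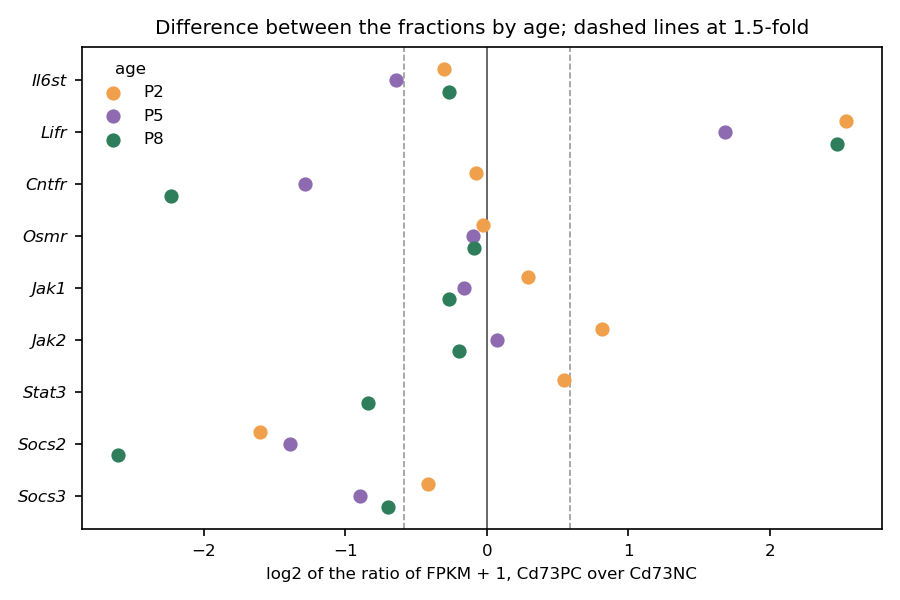
Log2 of the ratio of FPKM + 1, Cd73PC over Cd73NC, for each of the 9 genes at P2, P5, and P8, with dashed lines at 1.5-fold and 1 library behind each side of a ratio. Lifr was to the right at all ages and Socs2 to the left at all ages, Cntfr moved from -0.07 to -2.23, and Stat3 has no P5 point.

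The same count, again with Osmr included, was made along the time axis. Between E15 and E18 whole retina, 0 of 9 genes passed 1.5-fold, where 7.27% of all tested genes were higher and 3.05% lower at E18. From E18 whole retina to P2 Cd73NC the count was again 0 of 9 (5.38% higher and 12% lower over all genes). From E18 whole retina to P2 Cd73PC, Lifr and Jak2 were higher (14.6% of all genes) and Socs2 and Socs3 lower (28.7%). From P2 to P8 in Cd73NC, Stat3 was higher (20.0%) and Socs3 lower (24.0%). Over the same days in Cd73PC, Il6st was higher (10.4%) and Cntfr, Jak2, and Socs3 lower (25.0%). Higher genes made up 70.5% of all calls from E15 to E18, 31.0% and 33.7% from E18 to P2 Cd73NC and Cd73PC, and 29.4% from P2 to P8 in Cd73PC. With quantile normalization these shares were 56.6%, 44.7%, 48.5%, and 47.4%, and with median-ratio scaling the second was 17.7% and the last 45.5%. These comparisons share libraries with each other and with the comparisons of the fractions.

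Of the 52 other pathway genes that were listed, all had rows in the tables and 30 had a mean FPKM of at least 1. Of these 30, 9 were higher past 1.5-fold in Cd73PC and 5 lower at P2, where 13.9% and 24.2% of all tested genes were. At P5, 5 were higher and 8 lower (11.6% and 26.3% of all genes), and at P8, 5 were higher and 9 lower (12.4% and 29.8%). Of the 22 with a lower mean, 1 passed (Ptpn6, lower at P8). Among 10 ligands and soluble partners, 2 had a mean FPKM of at least 1, and 1 passed 1.5-fold, at each age. This was Cntf, at 1.16 and 1.32 in E15 and E18 whole retina, 1.41, 2.13, and 1.75 in Cd73NC, and 3.68, 4.08, and 3.49 in Cd73PC. All Cd73PC values of Cntf were above all others, and its row overlaps that of U05342 by 2105 bases. Lif was at most 0.04 in any library and Osm at most 0.07. Of 4 other receptor chains 0 passed at any of the 3 ages, and the highest, Il11ra1, lay between 1.43 and 2.37.

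Among the other kinases and STATs, the genes of STAT5, which acts behind growth hormone and cytokine receptors, were lower in Cd73PC. Stat5b was at 7.22 and 7.64 in E15 and E18 whole retina. It was 7.50, 5.63, and 20.1 in Cd73NC and 2.17, 1.41, and 2.37 in Cd73PC, with log2 ratios of -1.43, -1.46, and -2.65. Its neighbour Stat5a passed at P5 and P8 in the same direction. The 2 genes are near-identical in parts, so reads of 36 bases may have been shared between them. No other STAT passed at all 3 ages, and Stat2 was higher in Cd73PC at P5 alone.

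Of the 6 other SOCS family genes, 5 had a mean FPKM of at least 1. Of these, 2 were higher and 1 lower in Cd73PC at P2. At P5, 2 were higher and 2 lower, and at P8, 2 were higher and 0 lower. Of all tested genes, 13.9%, 11.6%, and 12.4% were higher and 24.2%, 26.3%, and 29.8% lower at these ages. Cish, an inhibitor that STAT5 induces, was higher at each age, at 9.67, 14.6, and 12.3 in Cd73PC and 3.17, 8.12, and 6.75 in Cd73NC. Socs7, the highest of the list, was at 30.9 against 15.1 at P2 and at 33.4 against 28.4 at P8. Of the 8 PIAS proteins and phosphatases, Pias3 differed most. Pias3 encodes a SUMO ligase first known as an inhibitor of STAT3 and later for acting with photoreceptor transcription factors. Its FPKM was 12.6 and 20.5 in E15 and E18 whole retina, 13.5, 41.2, and 18.8 in Cd73NC, and 128, 170.4, and 160.2 in Cd73PC. The log2 ratios were 3.16, 2.02, and 3.02, and, as for Lifr and the rod markers, the highest level in Cd73NC was at P5. Its row overlaps that of Nudt17 by 179 bases.

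The 16 listed genes known as targets of STAT3 or as induced by LIF did not move as 1 group. At P2, 4 were higher in Cd73PC (Gfap, Junb, Fos, and A2m) and 3 lower (Pim1, Irf1, and Ccnd1). At P5, 0 were higher and 4 lower (Gfap, Fos, Pim1, and Ccnd1), and at P8, 1 was higher (Junb) and 7 lower (Gfap, Fos, Myc, Pim1, Cebpd, Irf1, and Ccnd1). Of the 16, 10 had a mean FPKM of at least 1, and every gene that passed 1.5-fold was among these 10. Of all tested genes, which met the same minimum, 13.9%, 11.6%, and 12.4% were higher and 24.2%, 26.3%, and 29.8% lower at the 3 ages. Pim1, a survival kinase, was lower in Cd73PC at each age, at 5.74, 1.95, and 0.54 against 17.8, 8.69, and 4.42 in Cd73NC. Ccnd1, which encodes the cyclin D1 of progenitors and also stands in the progenitor list, was at 272, 76.2, and 9.31 in Cd73PC against 1095, 240.4, and 41.8 in Cd73NC. Gfap, also an astrocyte marker, was higher in Cd73PC at 2.52 against 0.19 in Cd73NC at P2, and was the other way round at P5 (2.36 against 5.22) and P8 (2.04 against 4.88). The summed astrocyte markers had the same directions, with 9.09 against 33.9 at P5 and 8.52 against 25.1 at P8, and their part in it was not tested. Edn2, which encodes the endothelin that photoreceptors release after injury, was at most 0.0502.

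**Figure D4:**
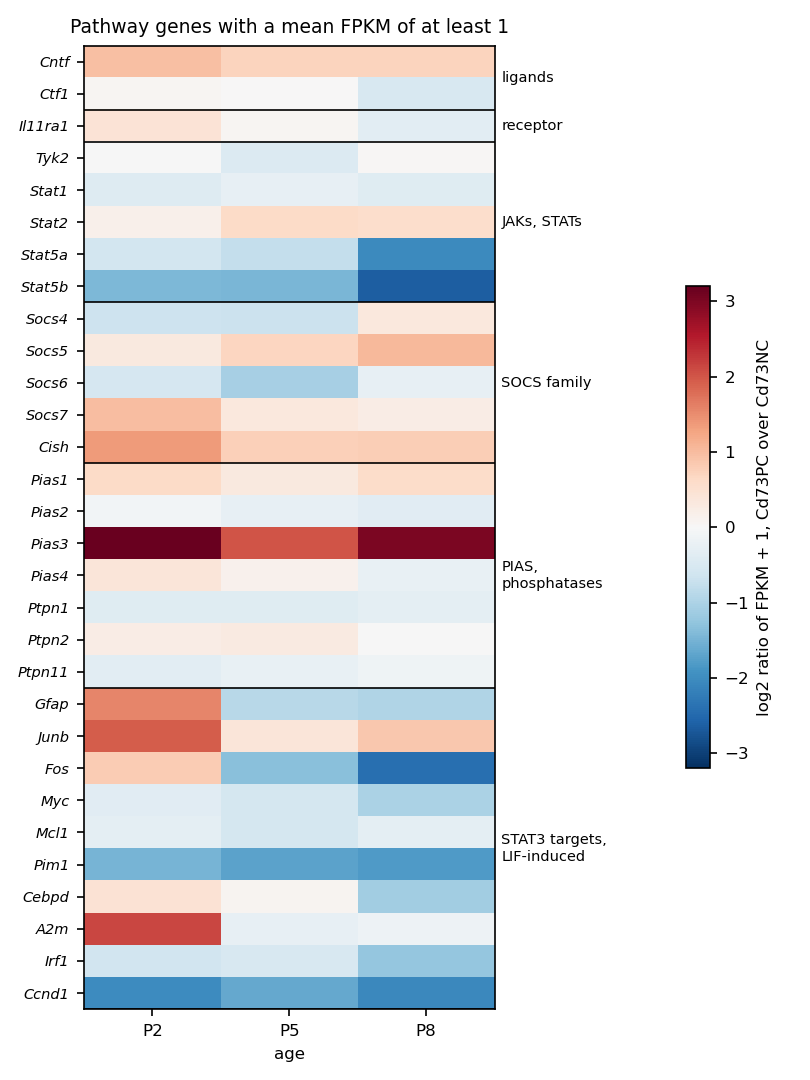
Log2 of the ratio of FPKM + 1, Cd73PC over Cd73NC, at P2, P5, and P8 for the 30 other pathway genes with a mean FPKM of at least 1, grouped by role (red, higher in Cd73PC). Pias3 is the darkest red at all ages (3.16, 2.02, and 3.02), and Stat5b, Pim1, and Ccnd1 are blue at all ages.

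For each of the 8 genes with a mean FPKM of at least 1, the genes with the most similar course were found as the smallest root mean square difference between centred log2(FPKM + 1) profiles over the 8 libraries (7 for Stat3). For Lifr these were Lrrc48, Gm11544, and Fam149a, with differences of 0.156, 0.165, and 0.166 against a median of 1.37 over all genes. For Cntfr they were Rcor2, Tax1bp3, and Plscr3 (0.158 to 0.198, median 0.830), and for Socs2 Nova1, Gstm7, and Fam69b (0.150 to 0.202, median 0.894). For Stat3 they were Pou6f1, Man2b2, and Pld3 (0.148 to 0.170, median 0.734), and for Socs3 Srebf2, Cdc25a, and Efnb3 (0.098 to 0.137, median 0.739). Gpam was nearest to Il6st (0.082, median 0.509) and Fbxl17 to Jak1 (0.052, median 0.446). Nearest to Jak2 was Gm10767 (0.143, median 0.496). No member was among the 3 nearest of another member.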

How the data were processed

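Per the labels, RNA of 8 samples was sequenced as 36-base single-end reads with a poly(A) kit. The authors aligned them to NCBI37/mm9 with TopHat2 2.0.8b and deposited, per library, the FPKM of 23021 rows from Cufflinks 2.1.1 with lower and upper bounds and a status. Read counts were not used here. Rows with a failed status (4 to 10 per library) were taken as missing, 794 rows of small RNAs were left out, and rows sharing a symbol were summed. All 71 member values lay inside their bounds, while 1428 to 2170 rows per library lay outside theirs. In weakly expressed rows with a matching GENCODE transcript, FPKM moved in steps of 1 fragment. The spacing put the depth at about 14.4 to 24.1 M fragments, with 62.2% to 70.0% of such values within 0.1 of a whole number. Counting precision was taken from the bounds.

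Each condition had 1 library, and no test was made, also not one of the fractions with age as a block. Ratios were taken as log2 of FPKM + 1, called past 1.5-fold, and set beside all genes with a mean FPKM of at least 1. The members and lists were chosen with earlier results of these data known. All members were named. Genes of the pathway lists were named when past 1.5-fold in 1 direction at all 3 ages or highest of their list, and the others named with a count were chosen after their values were seen, as were Stat2, Stat5a, Ptpn6, Gfap, Lif, Osm, and Edn2. Alternatives were constants of 0 and 0.1, 2-fold, non-overlapping bounds, no filter, and 3 scalings (upper quartile, median ratio of genes with FPKM of at least 10, and quantile normalization). A ratio was called moved when it changed by over 1.5-fold. Start coordinates were raised by 1. The calling and scaling code was tested on simulated data. Python 3.11.15, numpy 2.4.6, pandas 2.3.3, and matplotlib 3.10.9 were used.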

Additional observations from a re-analysis of the deposited data

Results flagged for a closer look

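The difference between the fractions turned direction with age in 3 of the 9 genes, from higher in Cd73PC at P2 to lower at P8, with Cufflinks bounds apart at both ages. The same course was seen in 5.04% of 12346 genes, and the reverse course in 1.89% of them and in 0 of the 9. The 9 include Osmr, which was below the minimum mean FPKM that those genes met. The log2 ratio of Cd73PC over Cd73NC changed from P2 to P8 by -1.38 for Stat3, by -1.01 for Jak2, and by -0.56 for Jak1. With median-ratio or upper-quartile scaling, 2 of the 3 remained (Jak1 and Stat3), since the P8 bounds of Jak2 then overlapped. At P8 the ratios of Jak1 (-0.26) and Jak2 (-0.20) lay near the median of all genes, -0.22, and that of Stat3 was -0.84. P2 Cd73PC also held more microglial marker RNA than P2 Cd73NC (51.0 against 8.88), and its part in these values was not tested.

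Socs2 was lower at P8 than at P2 in Cd73PC (log2 ratio -0.58) and higher in Cd73NC (0.42), with bounds apart in both. Opposite courses of this kind were seen in 7.40% of 12346 genes. With 1 library per condition, neither difference was tested.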

How the results depend on the processing

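The fractions of 1 age came from the same retinas, but no analysis with age as a block was run, and no age was left out. Of 355 log2 ratios of single members under the alternatives, 346 moved by less than 1.5-fold, 9 moved by more (Osmr and Socs3, without or with a smaller constant), and 0 of those past 1.5-fold changed sign. Ratios within 1.5-fold changed sign in 17 cases. The count of members past 1.5-fold at P5 between fractions, 5, was 3 with quantile normalization and with a 2-fold threshold and 4 with the other scalings, in all of which Il6st was within the threshold, and the P8 count, 5, was 3 at 2-fold. Between E15 and E18 the count of 0 became 1 with a constant of 0 or 0.1 (Lifr) and with quantile normalization (Cntfr). From E18 to P2 Cd73NC it became 1 without a constant (Osmr), and from E18 to P2 Cd73PC the count of 4 was 2 at 2-fold, and with quantile normalization it held Stat3 (higher) in place of Socs3. From P2 to P8 in Cd73NC the count of 2 was 5 with a constant of 0 or 0.1, 4 with each of the 3 scalings, and 1 at 2-fold. Il6st and Jak1 passed under all of these but the last, Osmr also with the smaller constants, and Socs3 did not pass 2-fold. From P2 to P8 in Cd73PC the count of 4 was 6 with a constant of 0 or 0.1, which added Osmr and Socs2. At 2-fold it was 3, without Il6st. Between fractions, the P2 count of 3 was 2 at 2-fold, without Jak2. It was 4, with Stat3, under a constant of 0 or 0.1, upper-quartile scaling, or quantile normalization. The P8 count between fractions was 4 with quantile normalization, without Socs3. Requiring bounds to be apart in addition to 1.5-fold changed no count. Without the filter on low values the share of all genes past 1.5-fold between fractions was 23.0%, 22.6%, and 26.1% at P2, P5, and P8, in place of 38.1%, 37.9%, and 42.1%. It was 6.71% from E15 to E18, 11.4% and 27.1% from E18 to P2 Cd73NC and Cd73PC, and 27.8% and 21.1% from P2 to P8 in Cd73NC and Cd73PC. Scaling by the median ratio and by the upper quartile was added for the genes that turned direction after seeing the data. Osmr and other genes below FPKM 1 rest on few fragments, and the absence of replicates limits every value.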
